A study of Phyllostachys violascens with 18 samples.

Results

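A stretch of 74 neighbouring genes on scaffold 14 of the bamboo Phyllostachys violascens was described, out of 42520 genes in the expression table and 2998 on that scaffold. The members were chosen by position alone, as the genes lying between bases 33149483 and 35695717 of scaffold 14 in the coordinates of the deposited table, with lycopene epsilon cyclase (PH02Gene28284) left out. The rule does not say which values drew these bounds, but the ratio of variant to typical leaves steps at them in young leaves. The values of young leaves are therefore treated as used by the rule. They are given as a description, with no p-value, and the count of calls there is printed but not read. The later stages, measured in other libraries of the same plant types, are not independent support. The stretch has also been called a run of low expression, which the levels go against. The median member had a mean FPKM (fragments scaled for transcript length and library size) of 4.61 over all libraries, against 3.48 for the whole table, 8.15 for the 50 genes before the stretch and 1.88 for the 50 genes after it. A mean FPKM under 1 was found for 24.3% of members, 18% and 42% of the flanking genes before and after, and 32.3% of all genes. In young leaves most members were lower in the variant than in the typical plant.

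Leaves of the variant ‘Flavistriatus’ and of the typical plant were sampled at a young, an immature and a mature stage, with 3 libraries in each of the 6 groups. All plants grew in a greenhouse, and the labels name no other treatment, age or genotype. Titles name leaves where the tissue field has culms. The labels leave unsaid whether libraries of the same group are separate plants, so the p-values cover the spread among samples alone, and that spread may be technical. RNA was copied from its poly(A) tail from very small amounts and amplified by PCR, with no strand mark and no molecular identifiers described, so reads of overlapping genes may not be told apart and copies count as reads.

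The libraries held 30268130 to 58374889 estimated counts, and 72 of the 74 members had enough counts to be tested. The other 2, a receptor-like kinase (PH02Gene22179) and a ribonucleoprotein (PH02Gene22180), were each above 0 in 1 library. Summed over 41 mesophyll marker genes, chiefly the chlorophyll-binding and photosystem proteins, scaled FPKM was 1437 to 2529 in variant and 2614 to 3713 in typical young leaves, 5327 to 5495 in variant and 41928 to 51727 in typical immature leaves, and 2219 to 12354 in variant and 24934 to 29453 in typical mature leaves. None of these markers was listed at 0 in all libraries, and the sums over 54 genes of secondary walls, a mark of culm, lay between 42.9 and 458. The leaf markers were lower in every variant library than in any typical library of the stage, and their part in the results below was not tested. In bulk tissue, fewer cells of a type and less RNA per cell cannot be told apart. Variant mature replicate 3 was the library at 2219.

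Genes that sit side by side on a plant chromosome usually serve unrelated functions, and each has its own promoter and its own timing in a growing leaf. A leaf first divides and expands its cells and then builds its plastids, so that levels of many genes turn over between the young and the mature stage. The members cover this mixture. Of the 74, 73 carried a description taken from proteins of other plants, mostly grasses, and the descriptions name motors of the cytoskeleton, vesicle and vacuole proteins, organelle proteins, kinases and phosphatases, transcription factors and splicing proteins. By a search of these descriptions, 19 members were uncharacterised, 8 were kinases or receptors, 7 were transcription factors, 7 were plastid or mitochondrial proteins and 1 was named by the terms for transporters, while the terms for mobile elements, disease resistance, F-box proteins, cytochrome P450 and transferases, and ribosomes found none. The search goes by words in the descriptions, so it does not take in the sugar transport protein MST8-like, the indole-2-monooxygenase-like P450 or the processome component of ribosome assembly described below. The members lay at 29.1 genes per megabase, against 24.5 before and 32.4 after the stretch and 27.7 over the scaffold, with 37 on each strand. Their identifiers fall into 3 blocks, the first of 24, the next of 17 and the last of 33 members.

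In young leaves the members with appreciable levels were all lower in the variant, and by much the same proportion. Of the 36 members with a mean FPKM of at least 5, 36 had a lower mean in variant than in typical young leaves, at 50.6% to 86.4% of the typical level, with a median of 61.5% and quartiles of 54.2% and 63.5%. These percentages use FPKM divided by each library's TMM factor, edgeR's trimmed-mean correction of library size, here called scaled FPKM. The flanking genes of the same levels centred near parity, with medians of 99.3% over 34 genes before and 96.2% over 20 genes after the stretch. Without the TMM factor the members' median was 64.4%, with 36 of 36 below 100%, against 104% for all genes of this level.

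Over all 72 tested members the median log2 fold change in young leaves was -0.66, with quartiles of -0.83 and -0.26. It was -0.01 in each flank and -0.00 over all tested genes, whose quartiles were -0.23 and 0.27. The 3 blocks of identifiers had medians of -0.63, -0.79 and -0.60 along the scaffold. A value below 0 was found for 60 of 72 members, against 18813 of 37595 genes tested. For 41 members all 3 variant libraries lay below all 3 typical libraries (12.8% of all genes), against 10 of 47 tested genes before and 6 of 42 after the stretch. The reverse order was found for 1 member (11.2% of all genes), which codes for a hypersensitive-induced response protein (PH02Gene11983) and had under 1 FPKM. The edgeR test, at an adjusted p under 0.05, called 5 members lower (0.0213% of all genes, or 8 genes) and 0 higher (0.149%), against 0.170% of genes in either direction, from which nothing is read since the rule may follow this contrast. That count ran from 1 to 16 with single libraries left out (0.0131% to 0.415% of all genes). The members under 5 FPKM were scattered, with 24 of 36 tested ones below 0.

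**Figure D1:**
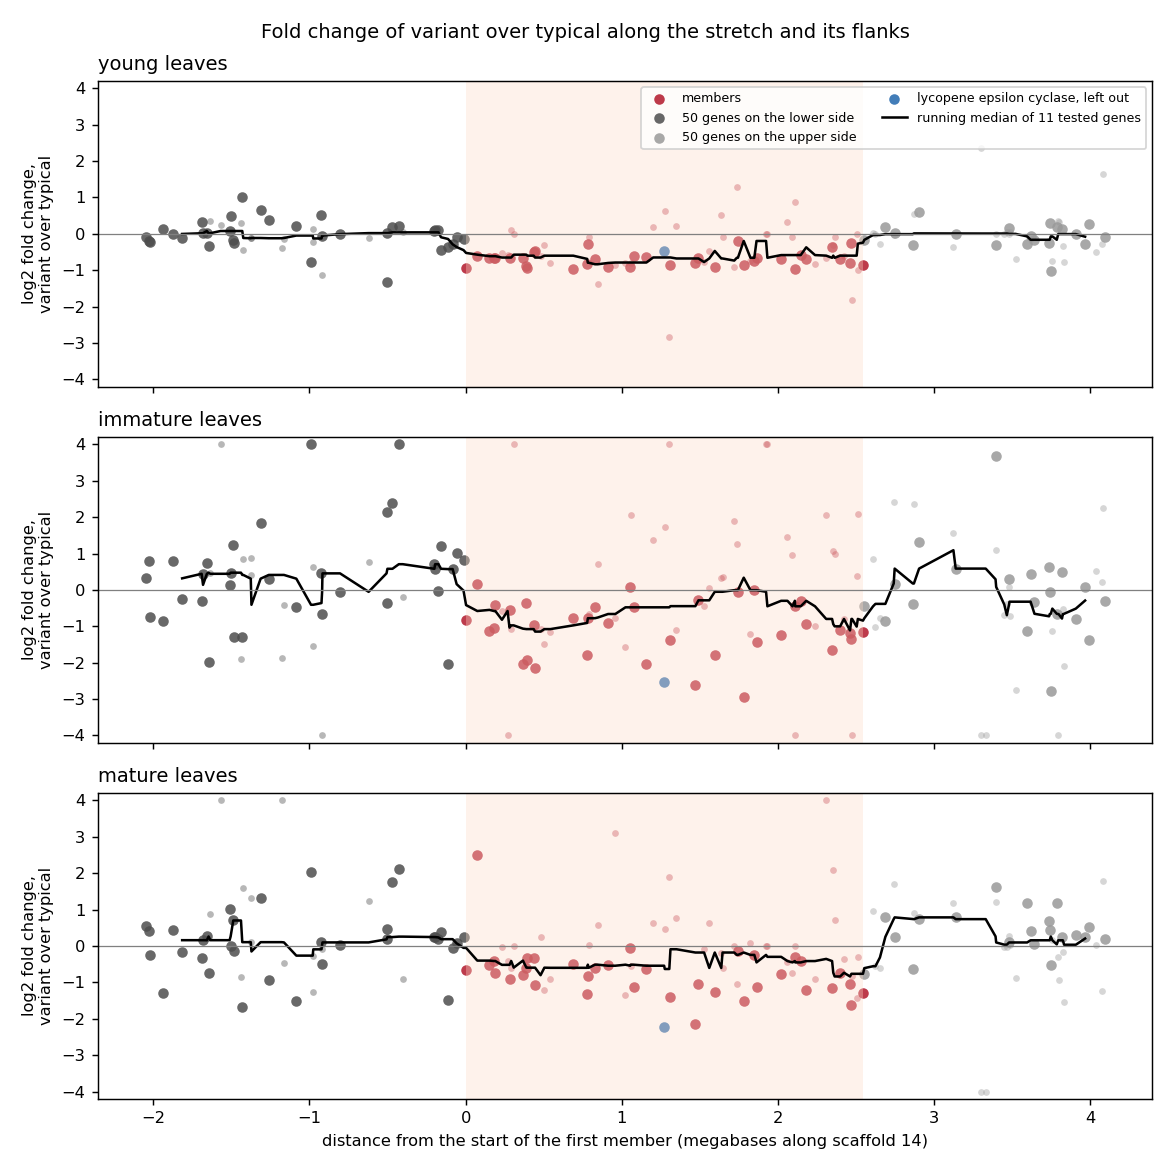
Log2 fold change of variant over typical leaves (y axis) for each tested gene against the distance of its middle from the start of the first member in megabases (x axis), with a panel per stage; large points have a mean FPKM of at least 5, the line is the running median of 11 genes and the shaded span is the stretch. In young leaves the line lies near 0 in both flanks and, with quartiles of -0.68 and -0.58 over the members, below 0 in the span, while at the later stages points spread more widely on both sides; values beyond 4 in size, 0 in young, 14 in immature and 5 in mature leaves, are drawn at the edge.

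The genes on either side of the bounds had the following values, which the choice of bounds may fix. The first member, a pentatricopeptide repeat protein (PH02Gene22159) of a family that binds organelle RNA, was at 52.0% of the typical level in young leaves, and the gene just before it, an uncharacterised one (PH02Gene22158), at 89.7%. The last member, the kinase AFC3 (PH02Gene12001), of a family that phosphorylates splicing factors, was at 54.1%, and the gene just after it, an aldehyde dehydrogenase (PH02Gene12002), at 88.1%. In immature leaves the gene before the stretch was higher in the variant, with 40.2, 39.2 and 44.7 against 25.5, 26.5 and 21.3 scaled FPKM (log2 fold change 0.83, edgeR adjusted p = 0.0013), while the first member was lower, at 53.9% of the typical level.

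Well expressed members code for proteins of different cell parts, and 4 are given here with their levels in young leaves. All 4 lay under the median of 61.5% of the typical level, ROOT HAIR DEFECTIVE 3 only just. Porin 3 and myosin-17 also lay under the lower quartile of 54.2%. Porin 3 (PH02Gene11984), the channel of the outer mitochondrial membrane, had 18.5, 18.4 and 17 scaled FPKM in variant and 34.4, 37.9 and 33.9 in typical young leaves. ROOT HAIR DEFECTIVE 3 (PH02Gene28273), a GTPase that fuses tubules of the endoplasmic reticulum, had 19.5, 21.1 and 20.1 in variant and 32.4, 34 and 32.6 in typical leaves. In both genes the variant libraries lay close together and well under the typical ones. Myosin-17 (PH02Gene11963), a motor that carries organelles along actin, had 3.88, 3.95 and 3.65 in variant and 7.05, 7.56 and 7.37 in typical leaves. Protein phosphatase 2C 6 (PH02Gene28290), of a family of serine and threonine phosphatases, had 21.2, 16 and 18.4 in variant and 33.5, 31.1 and 32.9 in typical leaves. All 3 variant libraries were below all 3 typical ones in each of the 4, whose levels were 50.7%, 61.3%, 52.2% and 57.0% of the typical level in the order given.

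**Figure D2:**
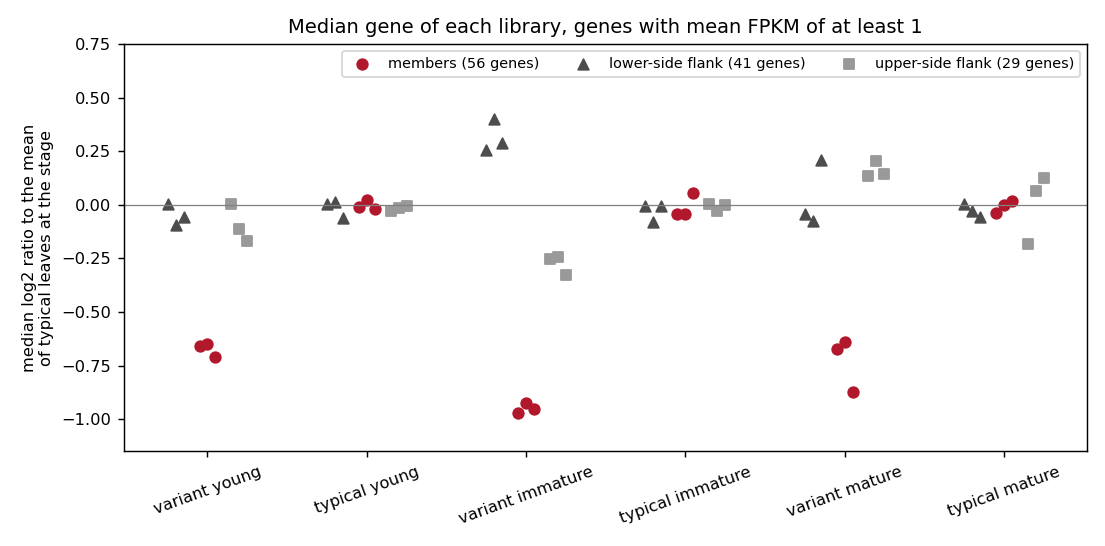
Median over genes with a mean FPKM of at least 1 of the log2 ratio of each library to the mean of the typical libraries of its stage (y axis), for 56 members and for 41 and 29 genes of the flanks before (lower side) and after (upper side) the stretch, by group (x axis). The 9 variant libraries had members' medians between -0.97 and -0.64, below the 9 typical libraries at -0.04 to 0.05, while the flanks of the variant libraries lay between -0.33 and 0.40.

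The same order was present library by library. Over the 56 members with a mean FPKM of at least 1, the median log2 ratio to the mean of typical leaves at the stage was -0.66, -0.65 and -0.71 in variant young leaves, -0.97, -0.93 and -0.95 in variant immature leaves, and -0.67, -0.64 and -0.87 in variant mature leaves. The lowest of the mature values belonged to replicate 3. The log counts of that library correlated at 0.836 and 0.759 with replicates 1 and 2 of its group, the lowest of all pairs within groups. It enters the spread used in the main edgeR tests of every stage. The number of these 56 members below the typical mean was 49, 52 and 52 in the variant young libraries and 49, 46 and 44 in the variant mature libraries, so a minority went the other way in each.

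In immature leaves the members spread apart, and most of the well expressed ones were below the typical level. A lower mean in variant leaves was found for 34 of the 36 members with at least 5 FPKM, at a median of 47.5% of the typical level with quartiles of 34.2% and 68.8% and a range from 12.3% to 107%. Without the TMM factor, which differed between variant and typical libraries at this stage, the count was 27 of 36 and the median 68.0%, against 127% for all genes of that level. On scaled FPKM the members' median was thus below the 61.5% of young leaves, while without the factor it was above the 64.4% of young leaves, so the order of the stages depends on the scaling. Over the 72 tested members the median log2 fold change was -0.77 with quartiles of -1.23 and 0.34, against 0.44 and -0.35 in the flanks before and after and -0.01 over all genes, and 50 of the 72 were below 0 (50.2% of all genes). The edgeR test called 43 members (44.9% of all genes), 37 lower in the variant (23.1%) and 6 higher (21.7%), with 9 lower and 16 higher among 47 tested genes before the stretch and 9 and 5 among 42 after it. On deposited FPKM with limma the split of members was 24 lower and 14 higher (5200 and 13686 of 37595 genes), on a scale where the median of all genes stood at 0.33 and that of the members at -0.32. All 3 variant libraries lay below all 3 typical libraries in 40 members (27.9% of all genes) and above them in 10 (28.2%). Of the 37 members called lower, 29 had at least 5 FPKM. With near-alike libraries summed, variant immature leaves were 1 column whose spread is assumed from the other groups, so calls of that setting are not read. The median log2 fold change was then -0.71 over the 72 tested members, against 0 over all genes.

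Well expressed members with large differences at this stage included a phosphatase, a kinase and genes whose function is not known. Protein phosphatase 2C 6 (PH02Gene28290) had 7.49, 7.7 and 6.98 scaled FPKM in variant and 46.2, 45.6 and 49.8 in typical immature leaves, a log2 fold change of -2.60 ± 0.15 (SE; edgeR adjusted p = 5.41e-08). Casein kinase I (PH02Gene22171), which phosphorylates serine and threonine of many proteins, had 25.8, 29.9 and 28.5 in variant and 126, 116 and 117 in typical leaves (-2.02 ± 0.15, edgeR adjusted p = 3.05e-07). In both genes every variant library was far below every typical one. A protein with the unknown domain DUF1118 (PH02Gene11972) had 16, 18.5 and 17.7 in variant and 128, 159 and 138 in typical leaves (-2.95 ± 0.31, edgeR adjusted p = 4.59e-06), which put it at 12.3% of the typical level, the lowest of the well expressed members. An uncharacterised gene (PH02Gene22175) had 11.2, 8.84 and 7.44 in variant and 35.8, 56.5 and 36 in typical leaves (-2.16 ± 0.26, edgeR adjusted p = 1.47e-05).

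SPATULA-like (PH02Gene22167), a basic helix-loop-helix transcription factor known in Arabidopsis from carpel and leaf growth, was high in a single group. It had 0.43, 0.534 and 0.254 scaled FPKM in variant and 11, 8.89 and 10.6 in typical immature leaves (log2 fold change -4.55 ± 0.50, edgeR adjusted p = 7.2e-06). In the 5 groups other than typical immature leaves it stayed at or under 1.05. At 0.298, 1.05 and 0.217 in variant and 0.655, 0.63 and 0.82 in typical mature leaves it did not pass the test (edgeR adjusted p = 0.553).

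**Figure D3:**
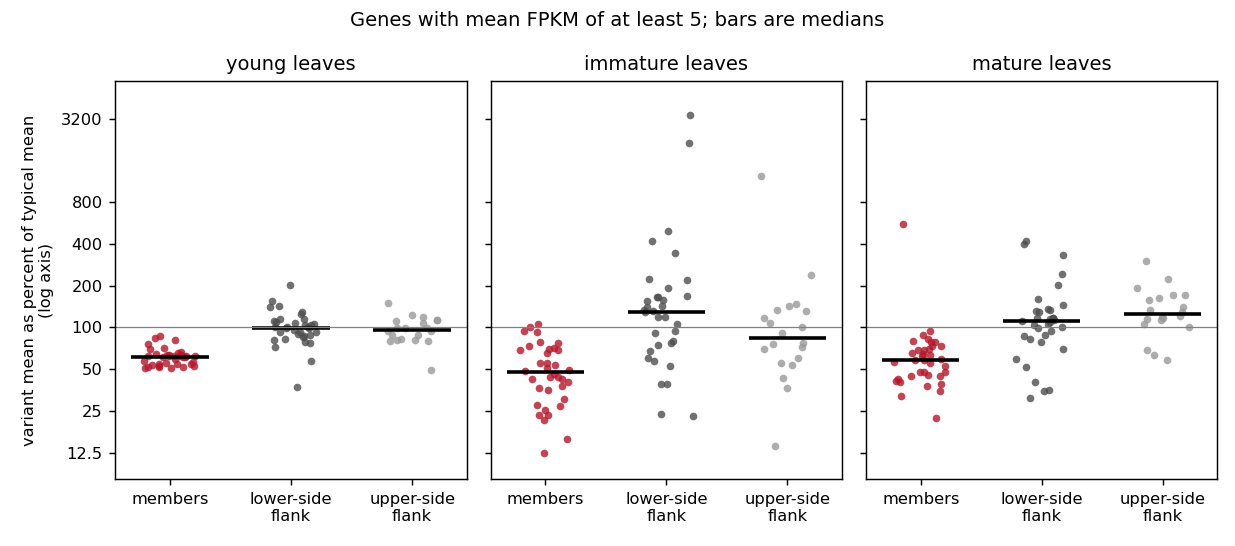
Mean scaled FPKM of the variant as a percent of that of the typical plant (log y axis) for genes with a mean FPKM of at least 5, in members and both flanks (x axis), with a panel per stage and bars at the medians. The members' medians of 61.5% in young, 47.5% in immature and 58.3% in mature leaves lie below those of both flanks, and the points of young leaves lie closer together than those of later leaves.

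Organelle and membrane proteins followed at more moderate sizes. FTSH 5 (PH02Gene22184), a protease of the inner mitochondrial membrane, had 5.77, 6.55 and 6.13 scaled FPKM in variant and 22.8, 15.4 and 29.3 in typical immature leaves (-1.80 ± 0.20, edgeR adjusted p = 9.45e-06). It shares 316 bases with the gene after it on the other strand, glyoxylate reductase 2 (PH02Gene22185), which detoxifies aldehydes, and reads there cannot be told apart. The reductase had 35.7, 33.8 and 34.5 in variant and 49.5, 72.6 and 64.4 in typical leaves (-0.78 ± 0.30, edgeR adjusted p = 0.0462), a call that was lost on deposited FPKM and without single libraries. The V-type proton ATPase subunit d (PH02Gene11979), part of the pump that acidifies the vacuole, had 26, 21.5 and 23.9 in variant and 55.6, 59.6 and 61.6 in typical leaves (-1.24 ± 0.13, edgeR adjusted p = 6.14e-06). Its variant libraries were all under 30 while its typical libraries were all over 50. Porin 3 stood at 50.7% of the typical level in young leaves and at 69.8% in immature leaves, with 16.8, 20.9 and 17.3 in variant and 23.9, 27.1 and 27.8 in typical leaves. Its call at this stage (-0.45 ± 0.12, edgeR adjusted p = 0.00653) was lost on deposited FPKM, where the log2 difference was -0.00.

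Among signalling and motor proteins, the regulatory subunit gamma-1 of the SNF1-related kinase (PH02Gene11975), a sensor of energy state, had 11.2, 11.4 and 10.3 scaled FPKM in variant and 31.2, 31.8 and 29.9 in typical immature leaves (-1.43 ± 0.14, edgeR adjusted p = 3.31e-06). Myosin-17 (PH02Gene11963) had 5.47, 4.68 and 5.3 in variant and 18, 14.7 and 23 in typical leaves (-1.78 ± 0.15, edgeR adjusted p = 7.37e-07). Its neighbour of the same name (PH02Gene11962) had 1.47, 1.4 and 1.4 in variant and 0.88, 2.39 and 1.02 in typical leaves and did not pass (edgeR adjusted p = 0.949), and reads may be shared between these near relatives. The auxin-releasing hydrolase ILR1-like 1 (PH02Gene22162), which frees the hormone from its amino acid conjugates, had 11.8, 10.1 and 9.8 in variant and 21.9, 27.4 and 23.4 in typical leaves (-1.13 ± 0.13, edgeR adjusted p = 8.88e-06). The prolyl isomerase CYP57 (PH02Gene28287), a protein-folding enzyme, had 4.42, 5.49 and 5.92 in variant and 13.7, 12 and 17.5 in typical leaves (-1.38 ± 0.18, edgeR adjusted p = 3.58e-05). Apart from the smaller myosin gene, the libraries of the plant types did not overlap in any of these.

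Of the 43 members called in immature leaves, 6 were higher in the variant, and 4 of these were listed at 0 in all typical immature libraries. These 4 are the WRKY transcription factor 31 pair (PH02Gene11976 and PH02Gene11977), of a family known for defence responses, the sugar transport protein MST8-like (PH02Gene22170) and an indole-2-monooxygenase-like protein (PH02Gene28286), a cytochrome P450. The first of the WRKY pair had 1.6, 0.93 and 1.1 scaled FPKM in variant immature leaves and the other had 0.422, 0.316 and 0.24. Both, and MST8-like at 0.497, 0.237 and 0.242, were listed at 0 in the 15 libraries of all other groups. These 3 passed the count filter only through the group in which they are above 0, so they had to differ, and their calls are not read. Levels this low rest on few reads, and no fold is given against values listed at 0. The indole-2-monooxygenase-like gene had 0.461, 0.418 and 0.481 in variant immature leaves (edgeR adjusted p = 0.00752). The other 2 had higher levels and were named after their values were seen. The small subunit processome component 20 (PH02Gene11968), a factor of ribosome assembly, had 5.6, 5.11 and 4.32 in variant and 1.14, 1.13 and 2.02 in typical leaves (1.88 ± 0.31, edgeR adjusted p = 0.000189), although in young leaves it had 3.77, 6.12 and 5.25 in variant and 8.89, 10 and 9.89 in typical leaves. An uncharacterised gene (PH02Gene28283) had 5.86, 6 and 6.72 in variant and 3.32, 1.6 and 2.64 in typical immature leaves (1.37 ± 0.44, edgeR adjusted p = 0.0196).

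**Figure D4:**
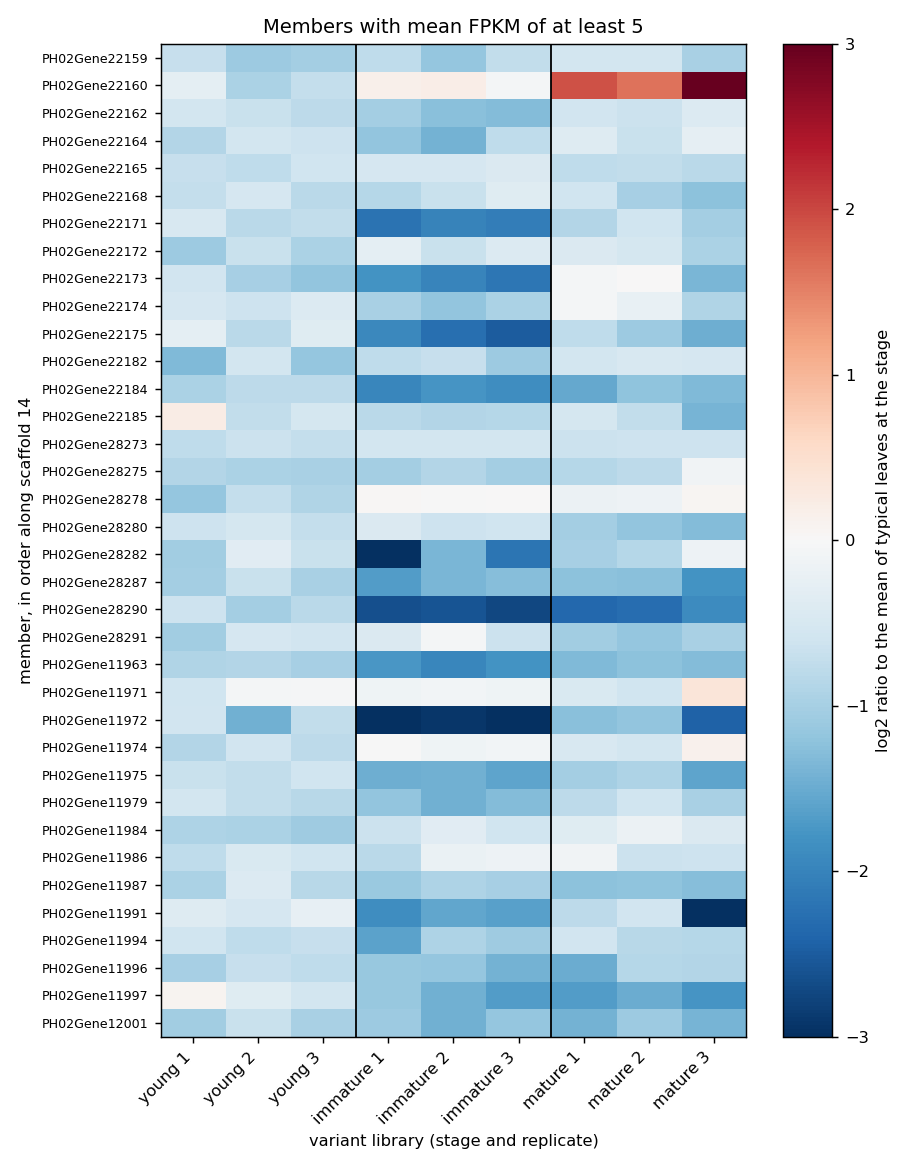
Log2 ratio of scaled FPKM in each of the 9 variant libraries (columns) to the mean of the typical libraries of that stage, for the 36 members with a mean FPKM of at least 5 (rows, in order along the scaffold), after adding 0.1 FPKM to both; blue is lower and red higher in the variant, and colours end at 3 in size. The 3 young columns are mostly an even pale blue, the immature columns hold most of the darkest blue cells, and the vacuolar-processing enzyme (PH02Gene22160) is the 1 strongly red row, in mature leaves.

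In mature leaves most of the well expressed members were again lower in the variant. Of the 36 with at least 5 FPKM, 35 had a lower mean in variant leaves, at a median of 58.3% of the typical level with quartiles of 44.7% and 71.1%. Without the TMM factor the count was 31 and the median 74.1%, against 128% for all genes of that level. Over the 72 tested members the median log2 fold change was -0.52 with quartiles of -0.95 and -0.00, against 0.16 and 0.22 in the flanks before and after and 0.09 over all genes, and 54 of the 72 were below 0 (43.2% of all genes). The edgeR test called 28 members (24.5% of all genes), 25 lower (9.65%) and 3 higher (14.9%), with 5 lower and 7 higher before the stretch and 3 and 6 after it. The 3 libraries of the variant lay below those of the typical plant in 31 members (15.9% of all genes) and above them in 4 (17.8%). On deposited FPKM the split of calls was 19 lower and 5 higher (2206 and 9387 of 37595 genes), and when the 6 mature libraries were fitted alone it was 12 lower and 1 higher (1187 and 1454 of 31770 genes).

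The phosphatase had the largest fall among the well expressed members in mature leaves. Protein phosphatase 2C 6 (PH02Gene28290) had 5.96, 6.33 and 8.33 scaled FPKM in variant and 32.9, 29.2 and 31.2 in typical mature leaves (-2.16 ± 0.15, edgeR adjusted p = 9.96e-07). Myosin-17 (PH02Gene11963) had 7.54, 8.05 and 7.73 in variant and 15.7, 20.5 and 21.1 in typical leaves (-1.27 ± 0.15, edgeR adjusted p = 6.13e-05). An uncharacterised gene (PH02Gene28280) had 29.5, 26.4 and 24.3 in variant and 68.7, 58.6 and 52.1 in typical leaves (-1.14 ± 0.13, edgeR adjusted p = 5.25e-05). In all 3 the groups were well apart. Another uncharacterised gene of high level (PH02Gene22168) had 33.6, 25.1 and 21.5 in variant and 48.2, 52 and 51.2 in typical leaves (-0.90 ± 0.17, edgeR adjusted p = 0.00194), also without overlap. The splicing factor CCDC94 (PH02Gene11987), a relative of a yeast spliceosome protein, had 18.1, 18.6 and 17.6 in variant and 38.2, 45.7 and 44.3 in typical leaves (-1.22 ± 0.14, edgeR adjusted p = 7.62e-05), and a gene of the same name close by (PH02Gene11989) was also lower, at 2.98, 4.43 and 4.97 against 9.23, 7.15 and 7.35 (edgeR adjusted p = 0.00966). These neighbours may share reads.

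FTSH 5 (PH02Gene22184) had 10.6, 13.3 and 12.3 scaled FPKM in variant and 22.2, 33.3 and 37.6 in typical mature leaves (-1.33 ± 0.20, edgeR adjusted p = 0.000379). The SNF1-related subunit (PH02Gene11975) had 18.3, 19.4 and 12.3 in variant and 33.5, 36.8 and 40.7 in typical leaves (-1.13 ± 0.14, edgeR adjusted p = 0.00011). The DUF1118 gene (PH02Gene11972) had 34.1, 36.2 and 15.1 in variant and 92.1, 77.9 and 75.7 in typical leaves (-1.51 ± 0.29, edgeR adjusted p = 0.00208), with replicate 3 of the variant under both other variant libraries. For all 3 genes every variant library was under every typical library. ROOT HAIR DEFECTIVE 3 (PH02Gene28273) varied little across the stages, at 61.3%, 68.5% and 64.8% of the typical level in young, immature and mature leaves. It had 21.9, 22.3 and 22.3 in variant and 29.6, 35.2 and 37.8 in typical mature leaves (-0.60 ± 0.11, edgeR adjusted p = 0.00171), and its calls in immature and mature leaves were lost on deposited FPKM.

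Vacuolar-processing enzyme (PH02Gene22160), a cysteine protease that matures proteins of the vacuole and is known for a part in cell death, was higher in variant mature leaves, unlike the other 35 well expressed members. It had 96.4, 79.3 and 253 scaled FPKM in variant and 29, 22.3 and 25.5 in typical mature leaves (2.51 ± 0.37, edgeR adjusted p = 0.000317). Every variant library was above every typical one, and replicate 3 was far above the others. Without that replicate the log2 fold change was 1.79. At the earlier stages the groups overlapped only in immature leaves, with 43.2, 44.8 and 37.3 in variant and 31.3, 47.7 and 38.4 in typical leaves (edgeR adjusted p = 0.748), while young leaves had 7.55, 4.76 and 5.61 in variant and 11.7, 8.1 and 8 in typical leaves. The cytokinin-activating enzyme LOG (PH02Gene11990), which makes the active hormone in rice, had 0.129, 0.0522 and 0.624 in variant mature leaves (edgeR adjusted p = 0.00402) and was listed at 0 in all 3 typical libraries. A leucine-rich repeat receptor-like kinase (PH02Gene28276), a cell surface protein, had 0.388, 0.201 and 0.126 in variant mature leaves, against 0, 0 and 0.0761 in typical mature leaves (edgeR adjusted p = 0.0219), and no longer passed without typical mature replicate 1 or 2 or variant mature replicate 1.

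**Figure D5:**
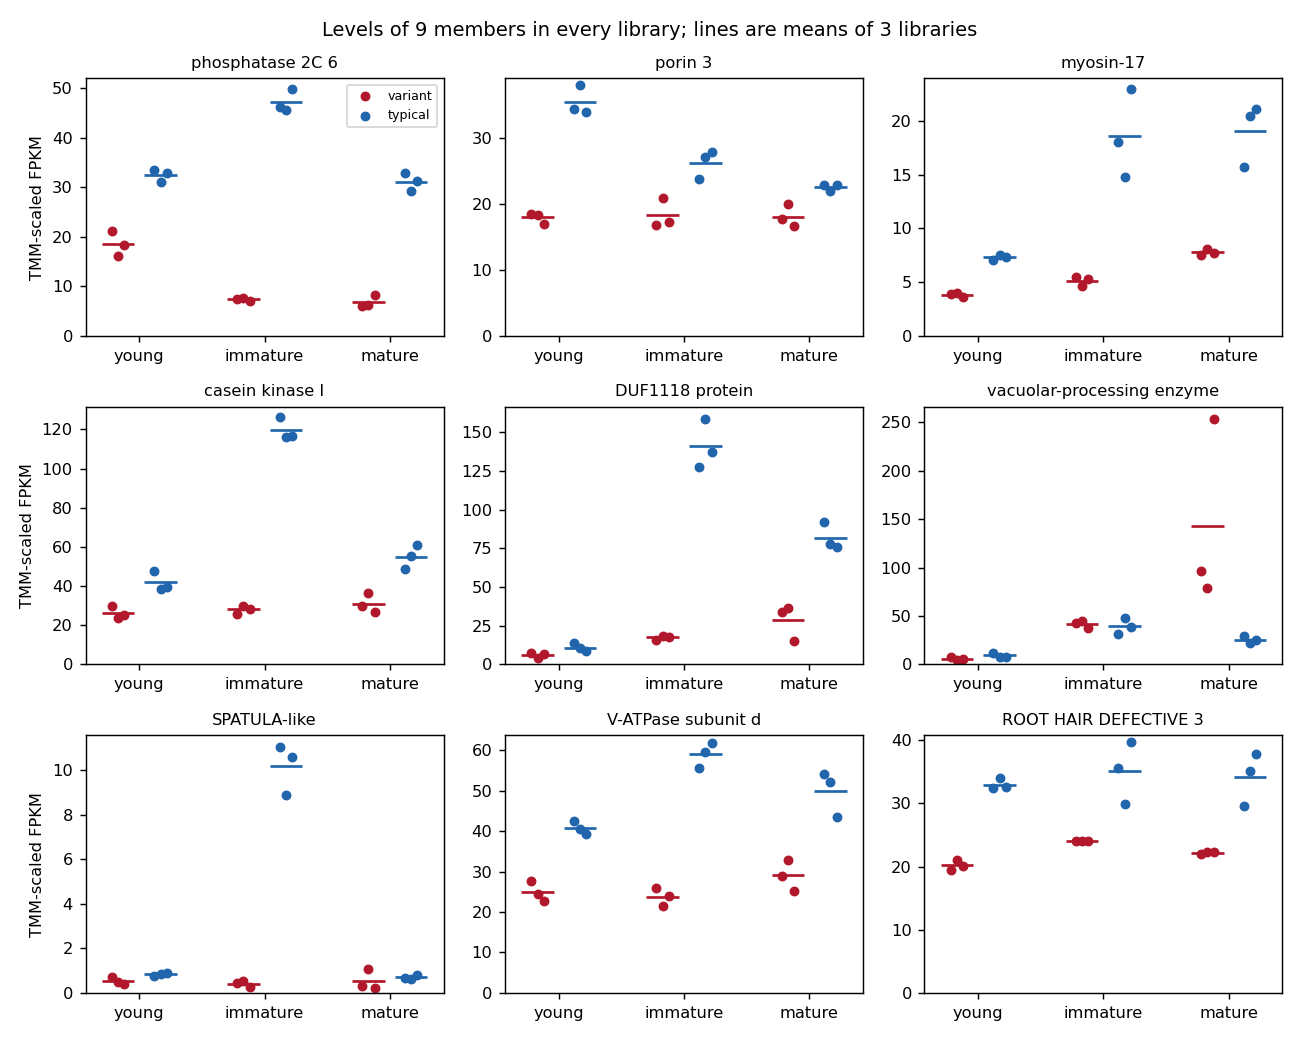
Scaled FPKM (y axis, from 0) of 9 members in every library by stage (x axis), with variant in red left of typical in blue and lines at the means of 3 libraries. ROOT HAIR DEFECTIVE 3 and porin 3 keep variant below typical at each stage, with a smaller gap in later leaves for porin 3, the phosphatase, casein kinase I and DUF1118 panels open widest in immature leaves, SPATULA-like is high only in typical immature leaves, and the vacuolar-processing enzyme is higher in variant mature leaves, at 253 in 1 library.

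Across the stages, 43 of 72 tested members had a log2 fold change below 0 at all 3 (17.4% of all genes). In 26 members the variant libraries lay below the typical ones without overlap at all 3 stages (1.84% of all genes), and 23 were called lower in both immature and mature leaves (6.86%). The first 2 of these counts include the young stage that the bounds may follow. By block of identifiers the median log2 fold change in immature leaves was -1.01, -0.47 and -0.30 along the scaffold, and in mature leaves -0.56, -0.52 and -0.45.

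The counts by description that follow stand against 23.1% of all genes called lower and 21.7% higher in immature leaves, and 9.65% lower and 14.9% higher in mature leaves. The 7 plastid or mitochondrial members held 6 below the typical level in young, 6 in immature and 7 in mature leaves, of which 5 were called lower in immature and 3 in mature leaves. Of 7 tested kinases and receptors, 5 were below in immature leaves with 3 called lower, and 6 were below in mature leaves with 3 called lower and 1 higher. Of the 7 transcription factors, 2 were called lower in immature leaves and 1 in mature leaves. The 2 called higher in immature leaves were the WRKY pair, which passed the count filter only through that group. Those 2 calls are not read. Of 19 uncharacterised members, 9 were called lower and 1 higher in immature leaves, and 8 were called lower in mature leaves. The DUF1118 gene and the uncharacterised gene PH02Gene28280 were among those 8.

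Many members changed with leaf age, as did many other genes. From young to immature leaves, 22 members rose and 13 fell in the variant (27.0% and 28.6% of all genes), while 25 rose and 10 fell in the typical plant (29.2% and 30.4%). That makes 35 in each, against 55.6% of all genes in the variant and 59.6% in the typical plant, with the young libraries shared with the contrast that the bounds may follow. The rises in the variant include the WRKY pair (PH02Gene11976 and PH02Gene11977) and MST8-like. These genes passed the count filter only through variant immature leaves, so their rises are not read. Limma on deposited FPKM called 19 members higher and 14 lower in the variant (9858 and 12837 of 37595 genes). In the typical plant it called 16 higher and 28 lower (7910 and 17032 genes). The whole table had medians of -0.17 in the variant and -0.55 in the typical plant on that scale. DESeq2 called 18 and 16 in the variant (9811 and 12107 genes) and 24 and 17 in the typical plant (10646 and 12607 genes). The members' balance in the typical plant thus turned on deposited FPKM but not with DESeq2. Calls over all genes also moved towards falls on deposited FPKM. The DUF1118 gene (PH02Gene11972) had 7.26, 3.94 and 6.49 scaled FPKM in variant and 13.9, 10.3 and 8.39 in typical young leaves, so its rise to immature leaves was 1.62 ± 0.29 on the log2 scale in the variant (edgeR adjusted p = 0.000285) and 3.70 ± 0.32 in the typical plant (edgeR adjusted p = 1.52e-07). The interaction of plant type with this change was called for 16 members (26.3% of all genes), 5 with a higher and 11 with a lower change in the variant (12.5% and 13.9%), a description for the same reason. On deposited FPKM this split turned to 16 higher and 6 lower (8992 and 3152 of 37595 genes), with the median of all genes at 0.31. The phosphatase fell by 1.27 in the variant (edgeR adjusted p = 3.65e-06) but rose by 0.54 in the typical plant (edgeR adjusted p = 0.00374), where the change was 0.03 on deposited FPKM with limma and did not pass. The transcription factor bHLH041 (PH02Gene28274) rose in both, to 3.58, 3.28 and 3.68 in variant immature leaves, against 0.084, 0 and 0.0482 in young ones, and to 2.32, 1.25 and 3.18 in typical immature leaves, against 0.103, 0.0588 and 0.204 in young ones. WRKY5 (PH02Gene11970), another transcription factor, and the uncharacterised gene PH02Gene22169 also rose in both, by 4.66 and 4.14 in the variant and 4.69 and 5.31 in the typical plant. An uncharacterised gene (PH02Gene11999) was listed at 0 in all 6 young libraries and reached 0.369, 0.359 and 1.36 in variant and 0.875, 0.498 and 0.29 in typical immature leaves. The receptor-like kinase PH02Gene28276 fell in both plant types, to 0.439, 0.448 and 0.721 in variant immature leaves, against 6.83, 10.2 and 7.44 in young ones, and to 1.74, 0.87 and 0.247 in typical immature leaves, against 11.2, 15.5 and 17.6 in young ones. The hypersensitive-induced response protein (PH02Gene11983), of a family that takes part in defence, was at 0 in the 3 variant immature libraries.

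From immature to mature leaves, 11 members rose and 7 fell in the variant (15.8% and 11.6% of all genes), and 6 rose and 12 fell in the typical plant (13.2% and 16.2%), or 18 in each, against 27.3% of all genes in the variant and 29.4% in the typical plant. The falls in the variant include the WRKY pair and MST8-like. These genes passed the count filter only through variant immature leaves, so their falls are not read. On deposited FPKM limma called 12 higher and 14 lower in the variant (5765 and 6518 of 37595 genes). In the typical plant it called 8 higher and 12 lower (6394 and 5411 genes), or 9 and 10 with a pseudocount of 1 (6074 and 4865 genes). The interaction of plant type with this change, which uses no young library, was called for 11 members (17.4% of all genes), 9 with a higher and 2 with a lower change in the variant (11.1% and 6.34%). On deposited FPKM it was called for 6 higher and 7 lower (2681 and 3911 of 37595 genes). The count was 7 without typical mature replicate 2 (2880 higher and 1762 lower of 38218 genes). It was also 7 without variant mature replicate 1 (3382 and 1715 of 38356 genes). With near-alike libraries summed, variant immature leaves were 1 column, so calls of that setting are not read. SPATULA-like had a change of 0.32 ± 0.45 in the variant (edgeR adjusted p = 0.633) and fell by 3.82 in the typical plant (edgeR adjusted p = 5.17e-05). Casein kinase I had 29.6, 36.5 and 26.9 scaled FPKM in variant mature leaves, a change of 0.11 ± 0.14 from immature ones (edgeR adjusted p = 0.59), and 48.7, 55.6 and 60.8 in typical mature leaves, where it fell by 1.10 (edgeR adjusted p = 6.65e-05). Both genes thus had their highest level in typical immature leaves. The vacuolar-processing enzyme rose by 1.75 ± 0.36 in the variant (edgeR adjusted p = 0.00253), or 1.04 without variant mature replicate 3, and changed by -0.60 ± 0.35 in the typical plant (edgeR adjusted p = 0.215). Myosin-17 of the lower level (PH02Gene11962) fell in both, by 1.67 in the variant and 2.23 in the typical plant.

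Lycopene epsilon cyclase (PH02Gene28284), which leads carotenoid synthesis towards lutein and was left out of the members although it lies among them, had 9.71, 7.04 and 6.34 scaled FPKM in variant and 13, 10.3 and 9.13 in typical young leaves. It was at 71.4%, 16.3% and 21.1% of the typical level in young, immature and mature leaves, with log2 fold changes of -2.54 in immature (edgeR adjusted p = 0.000492) and -2.23 in mature leaves (edgeR adjusted p = 0.00316). It shares 479 bases with the next gene on the same strand, a U-box protein (PH02Gene28285), which had under 1 FPKM. The highest gene before the stretch, the small GTPase RIC1 (PH02Gene22153), was at 106%, 94.2% and 112% of the typical level in young, immature and mature leaves and passed the test at neither later stage. The highest gene after it, a chlorophyll-binding protein of light-harvesting complex II (PH02Gene45538), was at 49.1% in young and 68.6% in mature leaves, and was called lower in immature leaves (log2 fold change -2.77, edgeR adjusted p = 0.000526). A level well below the typical one in immature leaves was therefore also found outside the bounds.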

How the data were processed

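Polyadenylated RNA of 18 leaf libraries was sequenced. The authors deposited an estimated count and an FPKM value per gene and library in 1 table, as its headers name them. Salmon, cutadapt and FastQC are listed in the submitters' processing notes, and the genome build is not given in the sources used here. Estimated counts were rounded and tested by edgeR 4.0.16 (quasi-likelihood, R 4.3.3) over 37595 genes that passed filterByExpr (minimum count 10, minimum total 15), with 6 group means, 12 residual degrees of freedom, TMM factors and Benjamini-Hochberg adjustment over all tested genes. FPKM was divided by the TMM factor for the values in the text, and SEs of log2 fold changes follow ±. Testing on simulated counts preceded the fit. Members and lists were chosen with earlier results of these data known. Named members are the 10 with the highest mean FPKM, the 12 with the smallest adjusted p between plant types, the 5 with the largest change in each stage comparison, the first and last, members of small description groups, and a few named after their values were seen. Genes listed at 0 in a group carry no fold, since some zeros can be failed estimates. Alternatives used DESeq2 1.42.0, limma 3.58.1 on FPKM with a pseudocount of 0.1 or 1, other filters, a replicate block, left-out libraries, and sums of near-alike libraries of a group, those whose counts differed least by chi-square though none agreed within sampling noise.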

Additional observations from a re-analysis of the deposited data

Results flagged for a closer look

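The change from immature to mature leaves differed between the variant and the typical plant, by an interaction term, for 11 members, with edgeR adjusted p between 0.00117 and 0.0431. That is a share near the background, since 17.4% of all tested genes were called. With near-alike libraries summed, variant immature leaves were 1 column, so that setting cannot back these calls. For 7 of the named ones the log2 change in the variant exceeded that in the typical plant. The excess was 4.15 for SPATULA-like (PH02Gene22167), 3.87 for the receptor-like kinase PH02Gene28276, 2.35 for the vacuolar-processing enzyme (PH02Gene22160), 1.45 for the DUF1118 gene (PH02Gene11972), 1.22 for casein kinase I (PH02Gene22171), 1.1 for the uncharacterised PH02Gene22175 and 0.61 for ILR1-like 1 (PH02Gene22162). It was -0.66 for the uncharacterised PH02Gene28280, which rose less in the variant. The value for PH02Gene28276 rests on a typical mature group listed at 0 in 2 of 3 libraries, so its size is uncertain, and it no longer passed on deposited FPKM (limma adjusted p = 0.141). The other 3 called members, not in the set named by rule, were the processome component 20 (PH02Gene11968) at -1.88, the nitrate regulatory gene2 protein (PH02Gene11973) at 1.30 and an uncharacterised gene (PH02Gene22173) at 1.59.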

How the results depend on the processing

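The count of members called in young leaves, 5 (0.170% of all genes), was the least stable value. It was 26 with DESeq2 (1.32%). With limma on FPKM it was 11, 13 and 12 for pseudocounts of 0.1 and 1 and for no filter (0.553%, 0.676% and 0.659%). It was 8 with only the compared libraries (0.257%) and 0 with near-alike libraries summed (0% of all genes). With 1 library left out it was 1 to 16. It was 1 when typical young 2, typical young 3, variant young 1 or variant young 3 was missing (0.0262%, 0.0131%, 0.0209% and 0.0655%). It was 13 without typical mature 1 (0.308%) and 16 without variant mature 3 (0.415%). All these calls of members were lower in the variant. With near-alike libraries summed, leaving 14 columns and variant immature leaves as 1 column whose spread is assumed from the other groups, calls fell to 21 of 43 between plant types in immature leaves, to 19 of 35 for immature against young variant leaves, to 0 of 18 for mature against immature variant leaves, and to 4 of 16 and 0 of 11 for the interactions with the earlier and the later change. In each of these comparisons the share of all genes called fell as well, so the drop is not particular to the members. These calls are not read. With only the compared libraries the mature plant types gave 13 calls against 28 in the main fit. Over all genes that setting called 1454 higher and 1187 lower of 31770, against 24.5% in the main fit. The later interaction gave 7 calls against 11, with 2154 higher and 1254 lower of 34476 genes, against 17.4% in the main fit. The count of 11 ranged from 7 (without typical mature 2 or variant mature 1) to 16 with 1 library left out. Members with a mean FPKM under a bound were 8.11% at 0.1 and 51.4% at 5, against 24.3% at 1. With a replicate block, 3 members were called in young (0.101% of all genes) and 39 in immature leaves (43.1%). In mature leaves 28 were called (4957 higher and 3338 lower of 37595 genes). Same-numbered libraries had deviations correlated at -0.0985 to 0.155, with 3 of 45 pairs over 0.1, so little shared effect of the number was seen. Whether same-numbered samples come from the same plant cannot be told from these correlations. Of all recomputed counts and percentages, 262 stayed within their bound and 32 moved further. The bound was 1.5 times the main value for counts and its 95% binomial interval for percentages. No named gene changed direction in a comparison where it was called, with the young plant types left out of that check. Of the single-gene values recomputed, 3260 kept their call and 292 no longer passed. The cause of these shifts was not tested. Depth limits the members under 1 FPKM, which rest on few reads.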
